A study of Mus musculus with 44 samples.

Results

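The neurons described here carry a tagged ribosome under an Amigo1-Cre driver in the interpeduncular nucleus, and the comparison sets the RNA on their ribosomes against the RNA of the whole dissected tissue in mice that had no nicotine. It takes 7 of the 44 libraries of the study: 3 immunoprecipitates (IPs) of tagged polysomes and 4 inputs, which hold RNA of the whole homogenate. The libraries were chosen by line, fraction and treatment, with no measured value. The study profiled neurons of the medial habenula and of the interpeduncular nucleus by translating ribosome affinity purification (TRAP), in which a ribosomal protein fused to EGFP is made in chosen cells and pulled down with its mRNA by antibodies to GFP.

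The IPs came from baseline pool 1, baseline pool 4 and saline pump pool 1, with 5, 8 and 5 mice pooled. The inputs came from baseline pools 1, 2 and 4 and saline pump pool 1, with 5, 5, 8 and 5 mice pooled. All 7 libraries were from adults over 8 weeks of age that carried Amigo1-Cre (NP231), a transgene on a bacterial artificial chromosome, and Eef1a1-LSL.EGFPL10, which makes EGFP-L10a only where Cre has acted, on the B6J.Cg background. Baseline mice had no treatment, and saline pump mice carried an osmotic minipump with saline for 10 days. The series' design text has both sexes in a pool unless a label says otherwise, and no label of these 7 libraries does. A single transgenic line stands for the cells, so the tag marks wherever this driver acted, and each library is 1 pool, so p-values cover the spread between pools. For a test of the line, 5 IPs and 4 inputs of Epyc-Cre mice without nicotine, another interpeduncular line of the same design, were added, which gave 16 libraries. These were baseline pools but for 1 IP from mice with saline pumps for 10 days and 1 input from another pool with saline pumps for 11 days.

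The interpeduncular nucleus is the main target of the medial habenula, whose axons release acetylcholine, glutamate and peptides there, and it is rich in nicotinic receptors and in inhibitory neurons. Nitric oxide made by the neuronal synthase activates soluble guanylate cyclase, which makes cGMP. cGMP in turn activates a protein kinase and is broken down by phosphodiesterases, and somatostatin is an inhibitory peptide that acts through its own receptors.

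The start of Sst, the somatostatin gene, is shown because Sst had the highest level of the 4 markers of these neurons and the largest difference among them. The 100 bases before its RefSeq start lie at chr16:23890845-23890944 (GRCm38.p6, minus strand), and capitals mark the cAMP response element TGACGTCA, which reads the same on both strands and begins 48 bases before the start.
Sst: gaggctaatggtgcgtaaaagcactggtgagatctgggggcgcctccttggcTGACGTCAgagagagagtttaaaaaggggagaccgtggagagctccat
Over the RefSeq windows, which run from 250 bases before to 50 after each start, 588 of 32851 hold these 8 letters (1.79%). Windows were given for 3 of the 4 markers, Sst, Nos1 and Pde5a, and 1 of these holds the letters. The match describes these letters and shows no binding.

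The IPs held 13973928, 22846556 and 7908401 counts in genes (baseline 1, baseline 4, saline pump 1), and the inputs 28795414 to 35502556. IP and input files name different sets of genes, 32532 and 37328 rows. Tests therefore used the 21046 symbols that both sets share and that are not at 0 throughout 1 of them, which held 87.6 to 90.6% of the counts of an IP and 75.9 to 83.4% of those of an input. Gene set and fraction cannot be told apart in this line. The only estimate of the shift between the sets comes from IPs of ChAT habenular neurons, 5 on the IP set and 3 on the input set. Of the 5, 3 were from mice on nicotine, which was a term in the fit, so the shift rests on 2 IPs without nicotine, from a saline pump pool and a saccharin water pool with saline injection, against 3 from saccharin water pools, 1 of them injected. Pool and treatment thus enter it too. It was 1 or more (absolute log2) for 1187 of the 4224 genes that differed below and for which it could be estimated. Over all tested genes with an estimate it was so for 2304 of 14110, a smaller share, so large shifts were more common among the genes that differed. The shift is given beside each named gene it touches. The baseline IPs correlated with each other at r = 0.9579 over log CPM and with the saline pump IP at 0.8882 and 0.8833, against 0.9719 to 0.9768 among the inputs, so the saline pump IP, which is also the shallowest, stood apart.

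Of 14572 genes tested with edgeR, 2010 (13.8%) were higher in the IPs than in the inputs and 2416 (16.6%) were lower at an adjusted p below 0.05, which is what higher and lower mean below. The median log2 difference over all genes was −0.025. Of these, differences of 1 or more on the log2 scale were found for 1021 higher and 1962 lower genes, and in 4296 of the 4426 genes all IPs lay on one side of all inputs. With the pool as a block over the 3 pools that have both fractions, 2518 genes passed, and with a term for the gene set 1452 passed. In bulk RNA, fewer cells of a type and less RNA per cell cannot be told apart.

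The 4 markers given for these neurons were all higher in the IPs. Sst had 4154, 4467 and 5635 CPM in the IPs (baseline 1, baseline 4, saline pump 1), against 184, 191, 211 and 268 CPM in the inputs (baseline 1, 2, 4, saline pump 1). Nos1, the neuronal nitric oxide synthase, had 1009, 1052 and 568 CPM in the IPs, against 262, 214, 234 and 229 CPM in the inputs. Neither gene overlapped between the fractions, and the saline pump IP was the highest for Sst and the lowest for Nos1. Pde5a, a phosphodiesterase that breaks down cGMP, had 58.2, 54.8 and 41.7 CPM in the IPs, against 9.43, 5.23, 5.63 and 3.92 CPM in the inputs. Chrna2, a nicotinic receptor subunit, had 231, 258 and 204 CPM in the IPs, against 37.7, 34.3, 47.2 and 35.0 CPM in the inputs. Here too every IP stood above every input.

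The log2 differences of the markers, with standard errors, were 4.48 ± 0.17 for Sst (chr16:23889573-23890958, GRCm38; adjusted p = 8.82e-07), 1.90 ± 0.20 for Nos1 (chr5:117781032-117958840; adjusted p = 1.28e-04), 3.09 ± 0.32 for Pde5a (chr3:122728947-122859374; adjusted p = 1.17e-04) and 2.58 ± 0.16 for Chrna2 (chr14:66135039-66152948; adjusted p = 6.77e-06). The gene set shift in ChAT IPs was −2.70 for Sst and −2.78 for Nos1, so both read lower on the set that the IPs use, and −0.021 for Pde5a. With the gene set term the differences were 7.17, 4.70 and 3.14 for Sst, Nos1 and Pde5a. Chrna2 had no shift estimate in ChAT IPs, so its value of 5.28 with the term is not read as a corrected difference. The plot of levels by library shows these markers with 4 other genes.

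**Figure D1:**
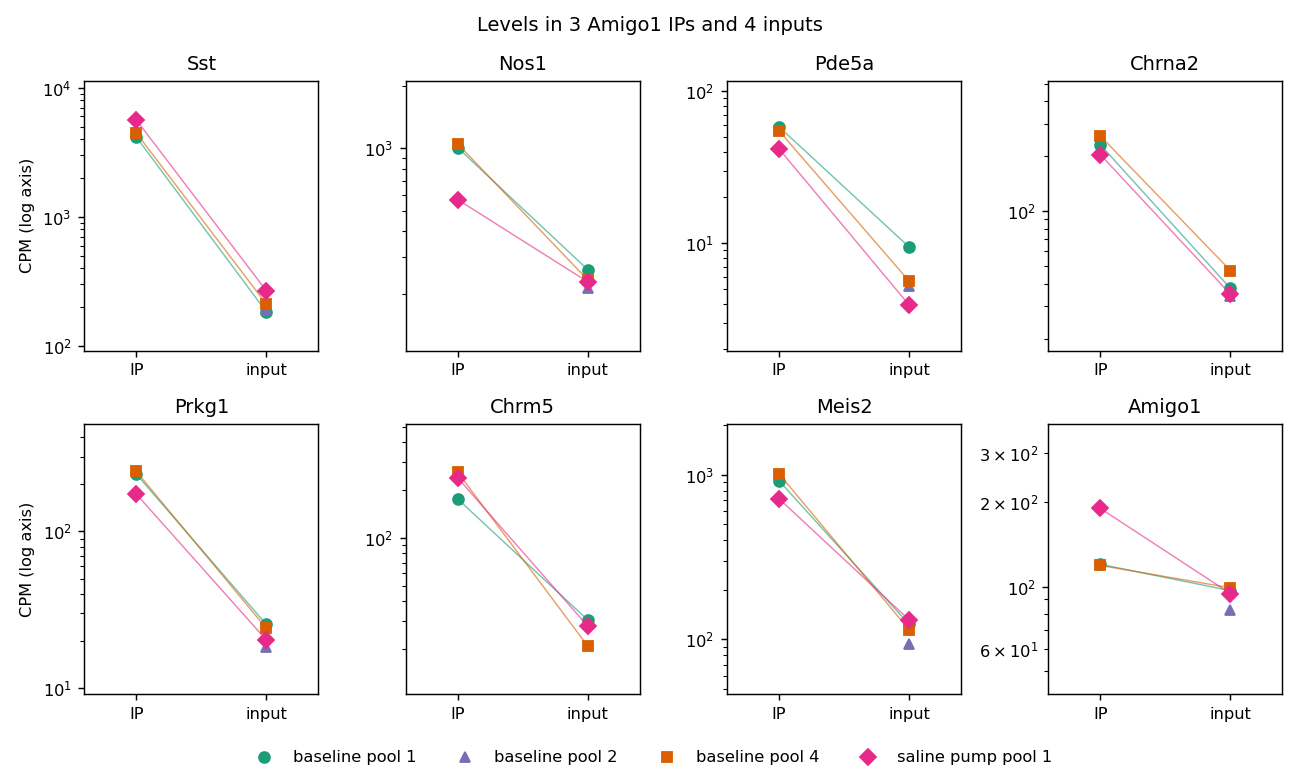
Levels of Sst, Nos1, Pde5a, Chrna2, Prkg1, Chrm5, Meis2 and Amigo1 in the 3 Amigo1 IPs (left in each panel) and the 4 inputs (right), in CPM on a log axis. Points are libraries, shape and colour give the pool, and lines join the 2 fractions of a pool. In the first 7 panels every IP lies above every input by a wide margin, while for Amigo1 the baseline IPs, at 120.1 and 119 CPM, lie close to the inputs at 82.6 to 99.0 CPM.

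Amigo1 itself, whose regulatory DNA drives Cre and whose product is an adhesion protein that accompanies Kv2 potassium channels, differed little. It had 120.1, 119 and 190.4 CPM in the IPs, against 96.7, 82.6, 99.0 and 94.4 CPM in the inputs. The difference was 0.62 ± 0.18 (adjusted p = 0.0303; chr3:108186335-108192286), and the saline pump IP was far above the baseline IPs. The call was lost without any 1 of the 4 inputs (adjusted p 0.0659 to 0.0963), with the pool as a block (adjusted p = 0.116) and with the gene set term (adjusted p = 0.143). Of 14 Amigo and Kv2-related genes tested, 3 were higher and 3 lower, with a median of 0.017. Rpl10a, the gene whose protein carries the tag, had 13.2, 6.19 and 31.8 CPM in the IPs, against 5.91, 4.40, 6.59 and 10.8 CPM in the inputs, and was not called (1.29 ± 0.53, adjusted p = 0.0931). It passed without the baseline 4 IP, at 1.69 (adjusted p = 0.0234), and with the gene set term it was −0.13, its gene set shift being 1.42.

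Genes of nitric oxide and cGMP signalling were higher in the IPs more often than lower: of 20 tested, 13 were higher and 2 lower, with a median difference of 0.65. The gene set shift was 1 or more for 6 of the 20, and 9 higher and 1 lower had a smaller shift or none estimated. With the gene set term 7 were higher and 0 lower, and 2 calls turned in sign. The 13 include Nos1 and Pde5a, which were given as markers. Prkg1, the cGMP-dependent protein kinase, had 232, 241 and 173 CPM in the IPs, against 25.5, 18.4, 24.1 and 20.3 CPM in the inputs. The fractions did not overlap, and the difference was 3.29 ± 0.18 (adjusted p = 4.53e-06). Its gene set shift was 1.24, and 2.06 of the difference remained with the term (adjusted p = 6.06e-04). Mrvi1, which codes for a substrate of that kinase, went the other way, with 0.241, 0.558 and 0 CPM in the IPs and 5.02, 4.40, 5.03 and 6.42 CPM in the inputs (−4.05 ± 0.78, adjusted p = 0.00410). A count of 0 in the saline pump IP allows up to 0.433 CPM, for counting error only, and with the gene set term the adjusted p of Mrvi1 was 0.0616.

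In the somatostatin system, 3 of 5 genes tested were higher and none lower (median 1.54). Beside Sst these were Sstr1 and Sstr3, which code for receptors of the peptide. Sstr3 had 18.7, 30.6 and 22.9 CPM in the IPs, against 7.55, 6.94, 9.37 and 10.4 CPM in the inputs (1.49 ± 0.28, adjusted p = 0.00362). Sstr1 had 22.9, 18.5 and 12.7 CPM in the IPs, against 6.14, 3.79, 5.44 and 5.25 CPM in the inputs (1.81 ± 0.32, adjusted p = 0.00283). Neither receptor overlapped between fractions. All 3 genes had a gene set shift of 1 or more: −1.09 for Sstr3, and 2.36 for Sstr1, whose difference with the term was −0.51 (adjusted p = 0.734), so its direction turned.

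Nicotinic receptor subunits divided. Of 9 tested, 4 were higher (Chrna2, Chrna3, Chrna5, Chrnb4), 3 were lower (Chrnb3, Chrna7, Chrna4) and 2 were not called (Chrnb2 at 0.32 ± 0.14 and Chrna6 at −0.35 ± 0.19). None of the 8 with an estimate had a gene set shift of 1 or more, and Chrna2 had no estimate. With the gene set term the 4 higher passed, Chrna2 without an estimate of its shift, but only 1 of the 3 lower did. Chrna3, Chrna5 and Chrnb4 lie side by side in the mouse genome and code for subunits that assemble together. Chrna3 had 98.1, 119 and 167 CPM in the IPs, against 31.0, 22.3, 26.4 and 30.2 CPM in the inputs. Chrna5 (chr9:54980880-55007779) had 143, 163 and 161 CPM in the IPs, against 30.2, 26.1, 37.8 and 43.2 CPM in the inputs. Chrnb4 had 44.7, 60.7 and 92.0 CPM in the IPs, against 20.8, 11.6, 19.0 and 18.0 CPM in the inputs. None of the 3 overlapped between fractions, and their differences were 2.22 ± 0.21 (adjusted p = 7.60e-05), 2.18 ± 0.19 (adjusted p = 4.56e-05) and 1.92 ± 0.29 (adjusted p = 0.00105), in that order.

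Chrnb3, an accessory subunit that is abundant in dopamine neurons, had 21.3, 30.7 and 58.1 CPM in the IPs, against 93.7, 96.7, 105 and 121 CPM in the inputs (−1.52 ± 0.31, adjusted p = 0.00527), with the saline pump IP nearest to the inputs. Chrna7, which forms receptors by itself, differed by −1.16 ± 0.31 (adjusted p = 0.0192). Chrna4, which pairs with Chrnb2, had 69.8, 91.3 and 231 CPM in the IPs, against 243, 274, 258 and 334 CPM in the inputs, at −1.09 ± 0.36 (adjusted p = 0.0449). Its call was lost without any 1 of the 4 inputs or of the 2 baseline IPs (adjusted p 0.0760 to 0.118). The call of Chrna7 was lost without the baseline 2 or the saline pump input (adjusted p 0.0706 and 0.0533) and with the pool as a block (adjusted p = 0.143).

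Among 9 genes for proteins that tune nicotinic receptors or break down acetylcholine, 2 were higher and 2 lower (median 0.44). Lypd6, a membrane-anchored protein of the Ly6 family, had 139, 185 and 371 CPM in the IPs, against 50.5, 34.6, 47.2 and 41.3 CPM in the inputs (2.41 ± 0.30, adjusted p = 3.83e-04). Its relative Ly6h had 36.0, 38.7 and 46.3 CPM in the IPs, against 17.8, 16.6, 19.3 and 20.8 CPM in the inputs (1.11 ± 0.20, adjusted p = 0.00268). Another relative, Lypd1, had 10.9, 14.2 and 15.0 CPM in the IPs, against 122, 111, 111 and 97.9 CPM in the inputs (−3.05 ± 0.19, adjusted p = 6.31e-06). All 3 were separate between fractions, Lypd6 most widely in the saline pump pool, but the gene set shift of Lypd1 was −1.83 and its adjusted p with the term was 0.263, and that of Ly6h was 0.300. Bche, butyrylcholinesterase, was lower by −1.96 ± 0.61 (adjusted p = 0.0352), a call lost without any 1 input or the baseline 1 IP (adjusted p 0.0628 to 0.0991) and with the block (adjusted p = 0.0574).

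Muscarinic receptor genes were led by Chrm5, a receptor coupled to phospholipase C. It had 176, 259 and 239 CPM in the IPs, against 30.6, 29.7, 21.0 and 28.0 CPM in the inputs (3.04 ± 0.19, adjusted p = 7.24e-06), well apart. Chrm1 and Chrm3, coupled in the same way, were higher by 1.34 ± 0.34 (adjusted p = 0.0159) and 1.00 ± 0.25 (adjusted p = 0.0131). Chrm2, which inhibits adenylate cyclase, was lower by −1.65 ± 0.28 (adjusted p = 0.00198), but its gene set shift was −1.61 and the difference with the term was −0.033. Of 5 muscarinic genes tested, 3 were thus higher and 1 lower (median 1.00), and with the gene set term 2 were higher and 0 lower. With the pool as a block the adjusted p was 0.0520 for Chrm1 and 0.0857 for Chrm3. Chrm1 also missed without the baseline 1 or the baseline 4 input (adjusted p 0.0521 and 0.0534). The plot of acetylcholine receptor genes orders both families.

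**Figure D2:**
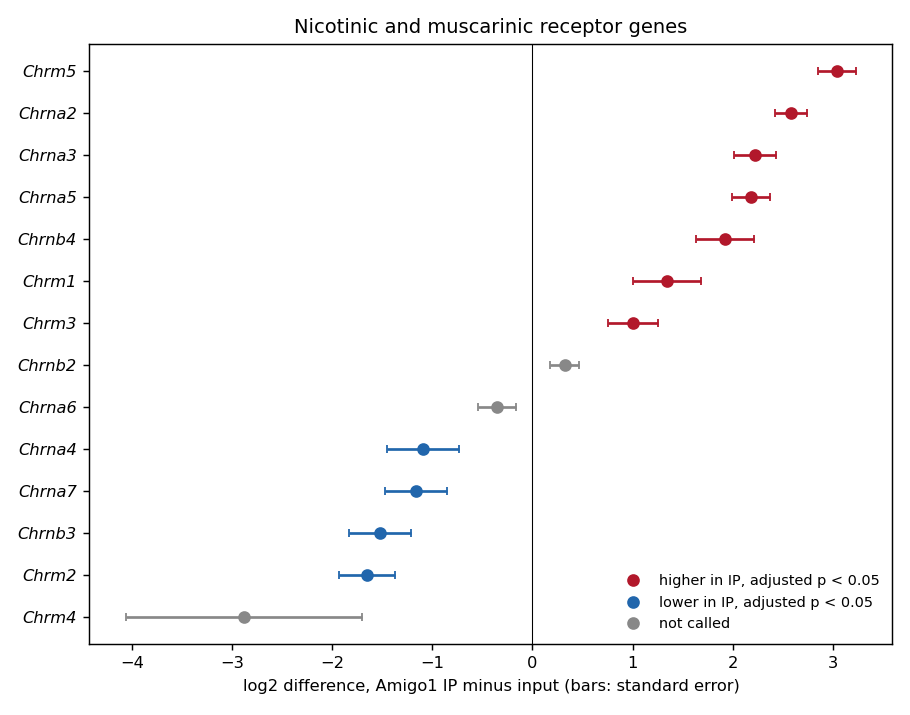
Log2 differences, Amigo1 IP minus input, of the 9 nicotinic and 5 muscarinic receptor genes tested, sorted, with bars for the standard error. Red marks genes higher and blue genes lower in the IPs at an adjusted p below 0.05, and grey those that did not pass. Chrm5 (3.04) and Chrna2 (2.58) lie highest, Chrnb3 (−1.52) and Chrm2 (−1.65) are the lowest that passed.

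Of 5 genes of inhibitory neurons, 3 were higher and 1 lower (median 0.85), while genes of glutamate, dopamine and serotonin neurons that passed were all lower. Slc32a1, the vesicular transporter of GABA and glycine, had 248, 349 and 369.9 CPM in the IPs, against 125, 116, 128 and 134 CPM in the inputs (1.36 ± 0.15, adjusted p = 1.83e-04). Gad1, which makes GABA, had 444, 422 and 216 CPM in the IPs, against 230.1, 204, 204 and 162 CPM in the inputs (0.85 ± 0.23, adjusted p = 0.0212). Slc32a1 was apart between fractions, but the saline pump IP of Gad1 lay among the inputs, and its call was lost without the baseline 1 IP, the baseline 4 IP or the baseline 2, baseline 4 or saline pump input (adjusted p 0.0565 to 0.0840). Abat, which breaks down GABA, was lower (−0.87 ± 0.13, adjusted p = 0.00113). All 5 genes of this list had gene set shifts of 1 or more, among those named −2.50 for Slc32a1, −1.36 for Gad1 and −1.26 for Abat, and with the term the difference of Abat was 0.41.

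Slc17a6, the vesicular glutamate transporter VGLUT2, had 11.4, 8.17 and 31.1 CPM in the IPs, against 83.4, 135, 96.1 and 112 CPM in the inputs (−2.70 ± 0.43, adjusted p = 0.00163), and Slc17a8, VGLUT3, differed by −0.81 ± 0.23 (adjusted p = 0.0258). Of 5 genes for glutamate or cholinergic neurons tested, 3 were lower and none higher. The call of Slc17a8 was lost without the baseline 1 input, the baseline 4 input or the baseline 4 IP (adjusted p 0.0773 to 0.0812) and with the gene set term (adjusted p = 0.937). Chat and Slc18a3, which define cholinergic neurons, fell under the count filter, with 1 and 5 counts over the 3 IPs against 43 and 128 counts over the 4 inputs.

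Of 16 genes of dopamine and serotonin neurons, whose cell bodies lie next to the nucleus, 14 were lower and none higher (median −2.64). The serotonin transporter gene Slc6a4 had 6.98, 5.07 and 4.18 CPM in the IPs, against 84.4, 79.8, 81.7 and 71.2 CPM in the inputs (−3.86 ± 0.23, adjusted p = 5.63e-06). Nr4a2, a transcription factor of dopamine neurons, had 20.4, 14.2 and 19.1 CPM in the IPs, against 178, 187, 130.2 and 197 CPM in the inputs (−3.28 ± 0.21, adjusted p = 9.12e-06). Lmx1b, which both cell types use, had 1.28, 0.355 and 7.43 CPM in the IPs, against 54.4, 32.1, 42.8 and 41.0 CPM in the inputs (−4.00 ± 0.81, adjusted p = 0.00527). In all 3 the fractions were apart. Only 7 of the 16 genes had a gene set shift estimate in ChAT IPs, and none of these shifts was 1 or more. With the gene set term 4 of the list were lower, and the adjusted p was 1.000 for Slc6a4, whose difference stayed at −3.84, and 0.776 for Lmx1b.

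Other cell types were also lower in the IPs. The summed level of 17 astrocyte markers was 1623, 1779 and 2849 CPM in the IPs, against 6909 to 7362 CPM in the inputs, and 15 of 17 were lower. That of 18 oligodendrocyte markers was 767, 735 and 2328 CPM in the IPs, against 7516 to 10386 CPM in the inputs, with 17 of 18 lower. That of 18 microglial markers was 32.9, 18.6 and 84.3 CPM in the IPs, against 145 to 203 CPM in the inputs, with 11 of 18 lower. The saline pump IP was the highest IP in each list, and none of these lists had a member that was higher. Without that IP the numbers lower were 17, 17 and 18. Named by the rule, Agt and Gjb6 of astrocytes differed by −3.40 ± 0.32 and −3.11 ± 0.32, Mag of oligodendrocytes by −3.61 ± 0.25, Olig2, which marks their lineage, by −3.34 ± 0.57, and Csf1r of microglia by −3.92 ± 0.49. Precursors of oligodendrocytes (7 of 8 lower), endothelial and mural cells (6 of 19), ependyma, choroid plexus and meninges (7 of 9) and blood cells (2 of 3) went the same way, and none of their members was higher. Gene set shifts of 1 or more were common here, in 10 of the astrocyte, 9 of the oligodendrocyte and 10 of the microglial genes, and 5, 9 and 4 of the lower genes in these lists had a smaller shift or none estimated. With the gene set term 3 astrocyte, 2 oligodendrocyte and 1 microglial genes were lower, 3 of the 15 astrocyte calls turned in sign, and Olig2 and Csf1r did not pass (adjusted p = 0.122 and 0.134). The shift was also 1 or more in 15 of the 19 endothelial and mural genes. It was so in 7 of the 9 ependymal, choroid plexus and meningeal genes, and with the term no gene of either list was lower. Of the precursor and of the blood cell genes 1 each was lower with the term. The part of the gene sets in the lower levels was not tested.

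**Figure D3:**
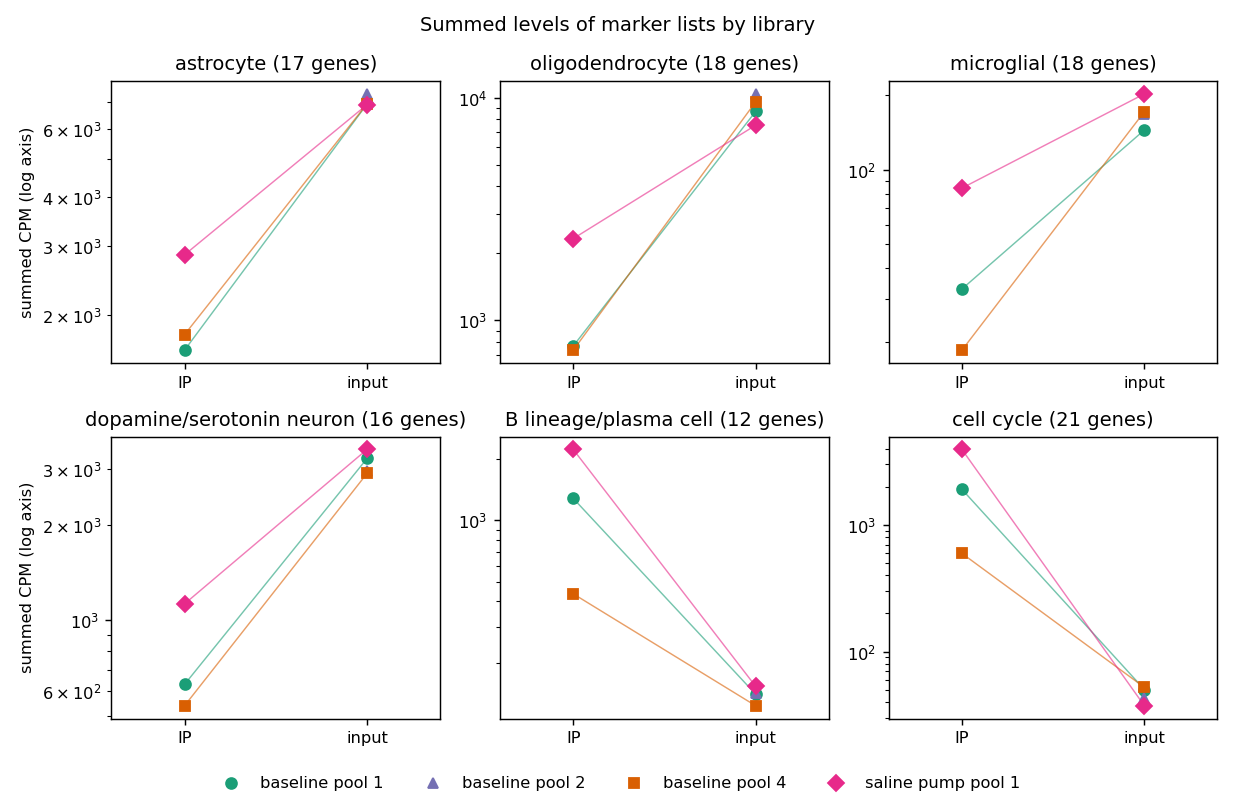
Summed levels, in CPM on a log axis, of 6 marker lists in the 3 Amigo1 IPs (left) and the 4 inputs (right), by pool, with lines joining the fractions of a pool and the number of genes tested in brackets. Astrocyte, oligodendrocyte, microglial and dopamine or serotonin lists are lower in every IP, with the saline pump IP the highest of them, while the B lineage or plasma cell and cell cycle lists are higher in every IP. A single gene, Ccnd2, makes up most of the cell cycle sum in each IP.

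**Figure D4:**
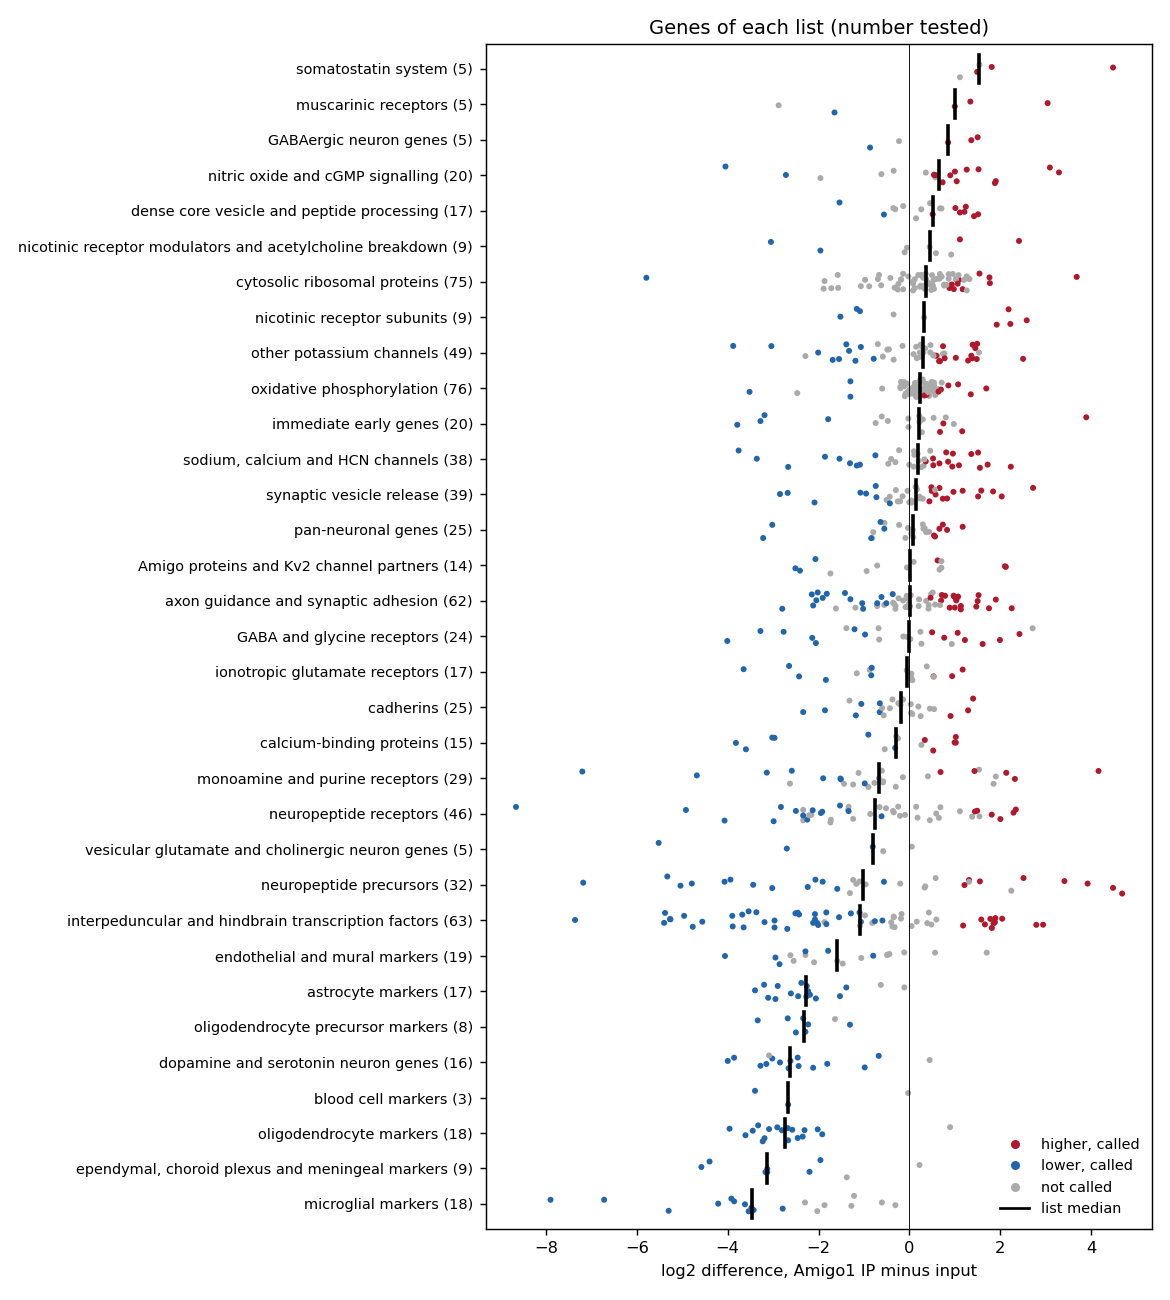
Log2 differences, Amigo1 IP minus input, of the genes of each list, with the number tested in brackets and lists sorted by their median (black bar). The 4 markers and the lists drawn up after the values were seen are left out. Red points are genes higher and blue points genes lower in the IPs at an adjusted p below 0.05, and grey points did not pass. Medians of the lists shown run from 1.54 in the somatostatin system to −3.45 in the microglial markers.

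Neuropeptide genes differed in both directions. Of 32 tested, 8 were higher and 13 lower (median −1.03), and with the gene set term 5 were higher and 7 lower. Pthlh, parathyroid hormone-like peptide, had 131, 123 and 164 CPM in the IPs, against 7.59, 8.19, 12.4 and 8.61 CPM in the inputs (3.92 ± 0.22). Calca, the gene of calcitonin and CGRP, had 54.4, 52.9 and 38.4 CPM in the IPs, against 3.05, 3.68, 5.79 and 5.86 CPM in the inputs (3.41 ± 0.30, adjusted p = 5.15e-05). Adcyap1, the gene of PACAP, had 2.97, 2.03 and 2.32 CPM in the IPs, against 38.9, 34.9, 40.3 and 49.4 CPM in the inputs (−4.07 ± 0.28). Each was separate by several-fold in every pool. The shift of Pthlh was 1.23, and with the term it was 2.62 higher (adjusted p = 0.0595). Cbln4, a cerebellin that organises synapses, had 4.73, 6.95 and 5.73 CPM in the IPs, against 65.6, 55.1, 75.2 and 57.4 CPM in the inputs (−3.44 ± 0.23). Cartpt, the gene of the CART peptide, had 3.93, 11.0 and 42.0 CPM in the IPs, against 32.5, 185, 131 and 243 CPM in the inputs (−3.02 ± 0.84, adjusted p = 0.0225). Its fractions overlapped, and its call was lost without the baseline 1 IP, the baseline 4 IP, the baseline 2 input or the saline pump input (adjusted p 0.0534 to 0.0685).

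Of 46 neuropeptide receptor genes, 6 were higher and 14 lower (median −0.76). The share higher, 13.0%, lay near the 13.8% of all genes, and nothing is read from it. The share lower was 30.4%, against 16.6% of all genes. Of the 46 genes 21 had a gene set shift of 1 or more, and with the term 5 were higher and 4 lower. Rxfp3, the relaxin-3 receptor, had 8.42, 18.6 and 55.4 CPM in the IPs, against 6.54, 3.98, 4.76 and 6.24 CPM in the inputs (2.34 ± 0.55, adjusted p = 0.0106). Npr3, the clearance receptor of natriuretic peptides, had 37.7, 42.7 and 5.89 CPM in the IPs, against 6.21, 6.03, 4.11 and 7.23 CPM in the inputs (2.29 ± 0.55, adjusted p = 0.0113). The saline pump IP was by far the highest for Rxfp3 and lay among the inputs for Npr3, and their gene set shifts were −1.13 and −2.03. Prokr2, a prokineticin receptor, had 5.61, 16.4 and 6.66 CPM in the IPs, against 2.13, 2.81, 3.05 and 1.59 CPM in the inputs (2.0 ± 0.50, adjusted p = 0.0144). It missed without the baseline 4 IP, at 1.36 (adjusted p = 0.0739), and with the pool as a block all 3 missed (adjusted p = 0.0726, 0.114 and 0.0697 for Rxfp3, Npr3 and Prokr2). Oprk1, the kappa opioid receptor, had 4.73, 5.02 and 9.60 CPM in the IPs, against 44.3, 37.4, 43.8 and 54.6 CPM in the inputs (−2.83 ± 0.31, adjusted p = 1.68e-04). Its gene set shift was −1.48, and its adjusted p with the term was 0.371.

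Among 29 monoamine and purine receptor genes, 5 were higher and 8 lower (median −0.67). These shares, 17.2 and 27.6%, compare with 13.8 and 16.6% of all genes. With a small shift or none estimated 5 were higher and 4 lower, and with the gene set term 1 and 0. Adra1a, an alpha-1 adrenergic receptor, had 132, 137 and 92.0 CPM in the IPs, against 25.4, 25.5, 33.9 and 25.3 CPM in the inputs (2.13 ± 0.19), and its relative Adra1d had 6.01, 23.3 and 5.27 CPM in the IPs, against 1.22, 0.682, 0.152 and 0.517 CPM in the inputs (4.16 ± 0.78, adjusted p = 0.00356). Both were apart between fractions, but Adra1d had no shift estimate and an adjusted p of 0.711 with the gene set term. Htr7, a serotonin receptor, had 6.33, 6.09 and 2.32 CPM in the IPs, against 11.1, 15.3, 18.4 and 12.7 CPM in the inputs (−1.52 ± 0.41, adjusted p = 0.0188), a call lost without the baseline 2 or the baseline 4 input (adjusted p 0.0561 and 0.0659) with the block (adjusted p = 0.0749) and with the gene set term (adjusted p = 0.428).

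Transcription factors of the interpeduncular region and hindbrain were lower far more often than higher, 34 against 11 of 63 tested (median −1.10). These shares, 54.0 and 17.5%, compare with 16.6 and 13.8% of all genes. The gene set shift was 1 or more for 14 of the 56 with an estimate. With the term 14 were lower and 8 higher, and 3 calls turned in sign. Meis2, a homeobox factor, had 919.8, 1014 and 715 CPM in the IPs, against 123, 92.8, 114 and 131 CPM in the inputs (2.94 ± 0.16, adjusted p = 4.53e-06). Mab21l2, a developmental regulator, had 73.0, 77.4 and 49.3 CPM in the IPs, against 8.80, 11.9, 11.4 and 6.29 CPM in the inputs (2.79 ± 0.27). The Iroquois homeobox gene Irx5 had 35.8, 39.4 and 34.8 CPM in the IPs, against 11.1, 8.99, 6.05 and 9.60 CPM in the inputs (2.04 ± 0.26, adjusted p = 3.57e-04). Every IP of these 3 exceeded every input, by the widest margin for Meis2, whose gene set shift was −1.84. The relatives of Irx5, Irx1, Irx2 and Irx3, chosen after their values were seen, were higher by 1.78 ± 0.25, 1.85 ± 0.15 and 1.89 ± 0.39, the last with an adjusted p of 0.340 under the gene set term.

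On the other side, Pax5, a paired-box factor of the midbrain-hindbrain boundary, had 0.722, 1.57 and 2.01 CPM in the IPs, against 62.3, 62.7, 56.0 and 51.1 CPM in the inputs (−5.38 ± 0.34). Nkx2-2, a homeobox factor of ventral neural tube and oligodendrocyte lineage, had 0.641, 0.558 and 0 CPM in the IPs, against 19.2, 16.7, 13.6 and 21.8 CPM in the inputs (−5.27 ± 0.60). Nkx6-1, of the same family, had 0.0802, 0.558 and 0.620 CPM in the IPs, against 13.8, 15.2, 16.8 and 17.8 CPM in the inputs (−5.26 ± 0.56, adjusted p = 1.48e-04). A count of 0 allows 0.145 to 0.433 CPM in these IPs, and Nkx2-2 and Nkx6-1 were each under their library's limit in 1 IP. With the gene set term Pax5 and Nkx6-1 did not pass (adjusted p = 0.459 and 0.255).

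Channel genes moved in both directions. Of 49 potassium channel genes outside the Kv2 group, 15 were higher and 10 lower (median 0.31). With the gene set term 8 were higher and 4 lower, and 5 calls turned in sign. Of 38 sodium, calcium and HCN channel genes 14 were higher and 9 lower (median 0.19). With the term these were 6 and 2, and 2 calls turned. Kcnip1, a calcium-binding partner of Kv4 channels, had 432, 443 and 368 CPM in the IPs, against 83.5, 63.6, 78.1 and 67.4 CPM in the inputs (2.50 ± 0.14). Cacng5, an auxiliary subunit of AMPA receptors, had 481, 613 and 430.4 CPM in the IPs, against 104, 68.5, 134 and 129 CPM in the inputs (2.23 ± 0.23, adjusted p = 1.18e-04). Neither overlapped. Kcns2, a silent subunit of Kv2 channels, differed by 2.12 ± 0.39. Lower were Kcnj5, an inwardly rectifying subunit (−3.88 ± 0.69), Kcng4, another silent Kv2 partner (−2.51 ± 0.51), Kcnn3, a calcium-activated channel (−2.01 ± 0.14), and Scn9a, the sodium channel NaV1.7 (−2.67 ± 0.26).

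Among receptors for fast transmission, 3 ionotropic glutamate receptor genes were higher and 6 lower of 17, and 7 GABA and glycine receptor genes were higher and 7 lower of 24. The gene set shift was 1 or more for 6 and 11 of them, and with the term 2 glutamate receptor genes were higher and 1 lower (3 of the 9 calls turned in sign), and 5 GABA and glycine receptor genes were higher and 1 lower. Gria1, an AMPA receptor subunit, had 389.9, 429 and 432 CPM in the IPs, against 193, 178, 201 and 168 CPM in the inputs (1.17 ± 0.11). Grik3, a kainate receptor subunit, had 25.2, 22.6 and 8.52 CPM in the IPs, against 105, 132, 120.4 and 123 CPM in the inputs (−2.65 ± 0.32). Gabrg1, a GABA-A receptor subunit, had 135, 162 and 162 CPM in the IPs, against 37.3, 36.1, 42.5 and 38.0 CPM in the inputs (1.99 ± 0.14). These 3 were apart in all pools. Grin3a, an NMDA receptor subunit, was higher by 0.94 ± 0.16 and Gabrq, the theta subunit of GABA-A receptors, by 1.61 ± 0.14, with a gene set shift of −2.44.

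Among 15 calcium-binding proteins, 5 were higher and 6 lower, but 5 and 3 with a small gene set shift and 1 and 2 with the term. Hpca, hippocalcin, was higher (1.02 ± 0.11), while Calb1, calbindin, had 3.37, 2.28 and 11.0 CPM in the IPs, against 63.8, 54.9, 58.5 and 75.0 CPM in the inputs (−3.60 ± 0.50). Pvalb, parvalbumin, had 2.89, 6.75 and 4.03 CPM in the IPs, against 22.9, 55.0, 22.9 and 49.4 CPM in the inputs (−3.02 ± 0.46). The IPs lay below all inputs for both, though with the gene set term Pvalb had an adjusted p of 0.115.

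Genes of release were higher more often than lower. For synaptic vesicles it was 14 against 8 of 39 (median 0.14). For dense core vesicles and peptide processing it was 7 against 2 of 17 (median 0.51). The gene set shift was 1 or more for 9 of the 39 synaptic vesicle genes. With the term 7 of them were higher and 1 lower, and 5 calls turned in sign. In the dense core list 2 were higher and 1 lower with the term, and 1 call turned. Cadps2, which primes dense core vesicles, had 792, 918 and 676 CPM in the IPs, against 320.3, 270.1, 276 and 247 CPM in the inputs (1.51 ± 0.14). Rab3b, a vesicle GTPase, was higher by 1.84 ± 0.17, Pcsk2, a prohormone convertase, by 1.42 ± 0.12, and Syt1, the calcium sensor of release, by 1.17 ± 0.10. Cpd, carboxypeptidase D, was lower (−1.54 ± 0.15). Snap25, a fusion protein of all neurons, was higher by 0.73 ± 0.13, but of 25 genes common to neurons 6 were higher and 5 lower (median 0.073).

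Of 62 genes of axon guidance and synaptic adhesion, 20 were higher and 15 lower (median 0.0018), and of 25 cadherins 3 were higher and 6 lower. With the gene set term 10 guidance and adhesion genes were higher and 3 lower, and 3 calls turned in sign. The shift was 1 or more for 8 of the cadherins. Among the others 2 were higher and 2 lower, and with the term 0 were higher and 1 lower, and 3 of the 9 calls turned. Of all 25 cadherins 12.0% were higher and 24.0% lower, against 13.8 and 16.6% of all genes. Plxnd1, a semaphorin receptor, had 28.0, 26.2 and 18.7 CPM in the IPs, against 6.17, 2.88, 5.56 and 5.90 CPM in the inputs (2.25 ± 0.33, adjusted p = 9.85e-04). Unc5d, a netrin receptor, had 134, 204 and 194 CPM in the IPs, against 50.9, 54.6, 57.1 and 48.7 CPM in the inputs (1.75 ± 0.17). Cdh13, a cadherin without a cytoplasmic tail, had 30.1, 26.6 and 13.8 CPM in the IPs, against 108, 134, 113 and 126 CPM in the inputs (−2.34 ± 0.26). None of these overlapped, and Unc5d had a gene set shift of −1.33. Immediate early genes were 4 higher and 4 lower of 20, with Btg2 the most raised (3.89 ± 0.46) and Arc, a synaptic early gene, lower (−1.79 ± 0.39).

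Cytosolic ribosomal protein genes were 10 higher and 1 lower of 75 (median 0.36), but without the saline pump IP 6 were higher and 10 lower (median 0.045), and with the gene set term none passed. Oxidative phosphorylation genes were 9 higher and 3 lower of 76 (median 0.24), and 14 and 3 without that IP. Over all 15149 genes tested without it, 2792 were higher and 3683 lower. With the gene set term 2 oxidative phosphorylation genes were higher and 0 lower, and 5 calls turned in sign. The shares of ribosomal protein genes (13.3%) and oxidative phosphorylation genes (11.8%) that were higher lay near that of all genes (13.8%). Nothing is read from them.

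Over all genes, the rule for the largest differences named several genes of antibody-producing or dividing cells among the 10 highest. Cytip, a lymphocyte protein that binds cytohesin, had 11.8, 2.23 and 17.7 CPM in the IPs, against 1 count in the 4 inputs together, in the saline pump input. Bhlha15, a factor of secretory and plasma cells, had 11.0, 3.75 and 45.8 CPM in the IPs, against 0.263, 0.796, 0 and 0.0861 CPM in the inputs (6.09 ± 1.14, adjusted p = 0.00363). Fam46c, a poly(A) polymerase abundant in plasma cells, had 84.4, 28.4 and 198 CPM in the IPs (4.97 ± 0.57). In these and in Dbf4, which starts DNA replication (55.2, 15.1 and 91.5 CPM in the IPs, 5.40 ± 0.68), Cenpe, a mitotic motor (21.8, 5.12 and 37.0 CPM, 4.03 ± 0.70), Elk4, an ETS factor (1246, 436 and 2478 CPM, 3.94 ± 0.46), and Btg2 (127, 42.1 and 224 CPM) the saline pump IP was the highest and the baseline 4 IP the lowest. Blnk, an adaptor of the B cell receptor, had 26.3, 4.16 and 25.2 CPM in the IPs (3.88 ± 0.69, adjusted p = 0.0908 with the gene set term). The others of the 10 were Adra1d and Krt20, a keratin.

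Gene lists for these cell types were drawn up after the values were seen. The summed level of 12 B lineage and plasma cell genes was 1282, 436 and 2229 CPM in the IPs, against 123 to 153 CPM in the inputs, with 10 higher and 1 lower. That of 21 cell cycle genes was 1910.0, 596 and 3944 CPM in the IPs, against 37.3 to 52.1 CPM in the inputs, with 11 higher and none lower. That of 3 granulocyte genes was 88.4, 31.9 and 222 CPM in the IPs, against 0.657 to 0.914 CPM in the inputs, with 2 higher. Both of these had a gene set shift of 1 or more, and only 3 of the 10 genes of this list were tested. Among the untested, S100a8, S100a9 and Camp had 0 counts in the IPs, against 14, 20 and 4 in the inputs. Mpo and Elane had 2 and 1 counts in the IPs, against 1 and 0 in the inputs. No granulocyte signal is read from this list. Pou2af1, a coactivator of B cells, had 300.3, 78.4 and 437 CPM in the IPs (9.92 ± 0.70), Irf4, a factor of plasma cells, had 650.3, 198 and 1099 CPM (7.01 ± 0.53), and Ccnd2, a cyclin, had 1420.1, 421 and 2765 CPM (6.54 ± 0.56). Their gene set shifts were 1.36, 1.80 and 1.80. Ccnd2 alone made up most of the cell cycle sum in each IP, and Irf4 and Pou2af1 together most of the B lineage sum. The shift was 1 or more for 7 of the 12 B lineage genes, and 4 of the 10 higher had a smaller one. With the gene set term 7 of these 10 passed, and 1 call of the list turned in sign. Of the 11 higher cell cycle genes 7 had a smaller shift or none estimated, and 6 passed with the term. The order over the IPs was saline pump 1, baseline 1, baseline 4, the reverse of their depth. The surface marker Cd22 was at 0 counts in the 3 IPs, while Cd79b had 67, Ighg1 62 and Ms4a1 10 counts in the IPs, against 2, 2 and 0 in the inputs. In the Epyc line the IP-input differences were 9.34 for Pou2af1, 5.64 for Irf4 and 5.31 for Ccnd2. A part of these genes in the other differences was not tested.

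The 8 lowest by the same rule were Pax5, Nkx2-2 and Nkx6-1, described above, and Phkg1, a subunit of phosphorylase kinase (−4.78 ± 0.60), Apln, the peptide apelin (−4.22 ± 0.56), Ramp1, a partner of the CGRP receptor (−4.21 ± 0.50), Pou3f4, a POU homeobox factor (−4.18 ± 0.71), and Arhgap18, a GTPase-activating protein (−4.07 ± 0.54). Ramp1 had 0.882, 0.913 and 0.310 CPM in the IPs, against 10.9, 17.2, 9.40 and 18.3 CPM in the inputs. Calca, the gene of CGRP, was among the raised peptides above.

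The IP-input difference was then set against that of the Epyc line, in 1 fit of 16 libraries where the IPs of both lines use one gene set and the inputs of both the other, so that a shift common to the lines cancels. Of 15251 genes, 304 (1.99%) had a higher and 316 (2.07%) a lower difference in Amigo1 than in Epyc. Of these 620, 348 were also called in the Amigo1 comparison in the same direction, and 118 were called in opposite directions in the 2 lines. With the pool as a block 352 passed. The inputs of the 2 lines gave no call with edgeR (0 of 14676 genes, 0%), and 538 genes had an unadjusted p below 0.05.

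Of the 4 markers, 3 differed between the lines. Sst was 4.10 ± 0.43 higher in the Amigo1 than in the Epyc difference (adjusted p = 6.74e-06), and its Epyc difference was 0.37 ± 0.28, with 295 to 452 CPM in 5 Epyc IPs against 157 to 571 CPM in 4 Epyc inputs. Nos1 was 2.97 ± 0.31 higher (adjusted p = 2.40e-06) and Pde5a 5.46 ± 0.61 higher (adjusted p = 5.87e-06), and in Epyc both were lower in the IPs, by −1.07 ± 0.20 and −2.38 ± 0.42. Epyc IPs and inputs overlapped for Sst, while Nos1 had 90.8 to 120.4 CPM in the Epyc IPs, all below the Epyc inputs. Chrna2 was not called between the lines (0.80 ± 0.41, adjusted p = 0.329) and was also higher in Epyc IPs, at 118 to 172 CPM (1.77 ± 0.28). Amigo1 gave 0.067 ± 0.28 (adjusted p = 0.940), with a difference of 0.54 ± 0.18 in Epyc. A p that misses the threshold does not show that the lines are alike.

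Signalling genes that differed between the lines included Prkg1 (3.04 ± 0.38 higher in Amigo1, against 0.24 ± 0.25 within Epyc) and Chrm5 (3.18 ± 0.38, against −0.15 ± 0.25 within Epyc). Of 20 nitric oxide and cGMP genes, 5 were higher and 3 lower. The line differences of Chrna3 (1.38 ± 0.35, adjusted p = 0.0266), Chrnb3 (1.70, adjusted p = 0.0195), Lypd6 (1.75 ± 0.36), Calca (2.52 ± 0.55) and Prokr2 (4.11 ± 0.78, adjusted p = 0.00235) missed with the pool as a block (adjusted p = 0.249, 0.0725, 0.161, 0.0689 and 0.0600, in that order). That of Chrna3 also missed without the Amigo1 saline pump IP, the Amigo1 baseline 2 or 4 input, the Epyc baseline 2 IP or the Epyc saline pump input (adjusted p 0.0516 to 0.0681), and that of Chrnb3 without the Amigo1 saline pump IP (adjusted p = 0.0596). Chrnb3 was lower in the IPs of both lines, by −1.52 in Amigo1 and −3.22 ± 0.29 in Epyc. Chrna5 and Chrnb4 were higher in Epyc IPs too, by 1.84 and 2.37.

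Among regulators and channels, Meis2 was 3.02 ± 0.27 and Mab21l2 5.84 ± 0.66 higher than in Epyc, where Mab21l2 was lower in the IPs (−3.05 ± 0.45). Adra1a (2.86 ± 0.33), Gria1 (1.93 ± 0.20), Gabrg1 (2.62 ± 0.26), Gabrq (3.00 ± 0.28), Cadps2 (2.18 ± 0.18) and Unc5d (2.90 ± 0.28) were higher than in Epyc, and all 6 were lower in Epyc IPs than in Epyc inputs by point estimate. Kcnip1 (1.53) and Pthlh (2.36) were higher as well. Lower than in Epyc were Htr7 (−2.71 ± 0.39), Pvalb (−3.24), Grik3 (−2.14) and Cbln4 (−1.53), the last lost without the Amigo1 baseline 1 IP (adjusted p = 0.0559). Htr7 had 32.2 to 41.6 CPM in the Epyc IPs, against 13.8 to 17.7 CPM in the Epyc inputs, so the 2 lines went in opposite directions.

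**Figure D5:**
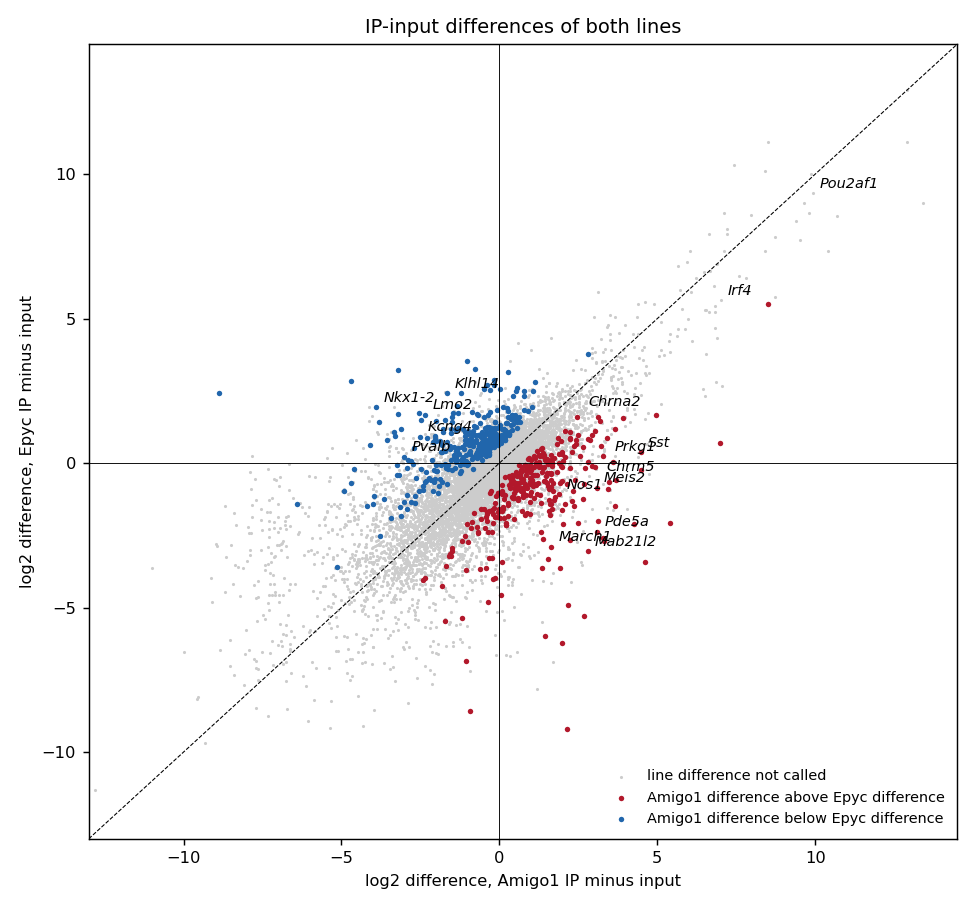
Each point is a gene, with the Amigo1 log2 difference (IP minus input) on the horizontal axis and the Epyc log2 difference on the vertical axis. Red points had a higher and blue points a lower difference in Amigo1 at an adjusted p below 0.05, grey points did not pass, and the dashed line marks equal differences. Sst lies at 4.48 in Amigo1 and 0.37 in Epyc, while Chrna2 lies near the dashed line, among the grey points.

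The rule for the largest line differences gave 6 genes on each side. On the higher side, beside Mab21l2 and Pde5a, Crisp1, a secreted protein known from the epididymis, had 52.8, 65.4 and 40.3 CPM in the IPs, against 3.61, 3.45, 3.69 and 5.86 CPM in the inputs, and differed from Epyc by 5.14 ± 0.61. March1, a ubiquitin ligase, had 148, 142 and 171 CPM in the IPs, against 52.8, 48.0, 50.8 and 45.9 CPM in the inputs, and differed from Epyc by 4.52 ± 0.36, where it was lower (−2.89). Slc44a3, a choline transporter-like protein, had 35.5, 30.0 and 14.9 CPM in the IPs, against 2.07, 1.63, 4.68 and 2.45 CPM in the inputs (3.31 ± 0.45). In Epyc it was at 0 to 0.0592 CPM in the IPs and 0 to 0.250 CPM in the inputs, near the limit of detection, so no difference is given. Within Amigo1, Crisp1 and Slc44a3 had adjusted p of 1.000 and 0.743 with the gene set term. Krt20 differed by 4.72, a call lost without the Amigo1 baseline 1, baseline 2 or saline pump input, the Epyc baseline 1 or saline pump input or the Epyc baseline 2 IP (adjusted p 0.0501 to 0.0654).

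On the lower side were Nkx1-2, a homeobox factor (−5.82), Klhl14, a Kelch protein (−4.11), Lmo2, a LIM-domain partner of transcription factors (−3.99 ± 0.64), Acvr1c, an activin receptor (−3.69 ± 0.42), Asic4, a relative of acid-sensing channels (−3.51 ± 0.58), and Kcng4 (−3.44 ± 0.51). Acvr1c had 4.97, 4.67 and 13.0 CPM in the Amigo1 IPs, against 13.6, 17.1, 18.7 and 20.3 CPM in the Amigo1 inputs, while the Epyc IPs had 59.9 to 83.5 CPM and the Epyc inputs 8.74 to 17.9 CPM. Lmo2 had 2.57, 4.01 and 0.310 CPM in the Amigo1 IPs, against 13.8, 9.44, 15.8 and 9.99 CPM in the Amigo1 inputs, and 19.7 to 49.0 CPM in the Epyc IPs. Both were thus low in Amigo1 IPs and high in Epyc IPs. The fall within Amigo1 was less firm: the calls of Klhl14 and Acvr1c were lost without any 1 library but the saline pump IP (adjusted p 0.0557 to 0.102 and 0.0701 to 0.123) and with the block (adjusted p = 0.0513 and 0.0727). That of Asic4 was lost without the baseline 1 or 4 IP or the baseline 1, baseline 4 or saline pump input (adjusted p 0.0590 to 0.0952), and that of Lmo2 without the baseline 1 IP or the baseline 1 or 4 input (adjusted p 0.0502 to 0.0630). With the gene set term Nkx1-2, Klhl14, Lmo2 and Acvr1c did not pass (adjusted p 0.241 to 0.918).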

How the data were processed

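Each deposited file holds 1 library as whole counts by gene symbol. The submitters' processing notes name STAR 2.3.0e, HTSeq, DESeq2 and the build mm10, and the settings of these tools were not given in the sources used here. Libraries were made from amplified cDNA (500 pg of RNA), per the labels' protocols, which name no strand marking and no molecular identifiers. Reads of overlapping or antisense genes therefore cannot be told apart, and limits from counts cover counting error only. Reads in no gene (15.4 to 27.3% in IPs, 11.6 to 13.6% in inputs) and ambiguous reads (0.54 to 1.1% and 4.48 to 5.37%) stayed out of library sizes.

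Genes at a minimum count of 10 (filterByExpr) were tested with edgeR 4.0.16 in R 4.3.3: TMM scaling, robust quasi-likelihood F test and Benjamini-Hochberg adjustment over all genes tested. Levels are TMM-scaled CPM, and values of the Epyc comparison come from the fit of 16 libraries. The alternatives were DESeq2 1.42.0, other size factors, filters and symbol sets, a gene set term, pool blocks and each library left out in turn. Same-numbered IPs and inputs were taken as the 2 fractions of 1 pool from the labels. Their deviations correlated at 0.0419, 0.0521 and 0.0495 over 14572 genes, each the highest for its pool and all under 0.1. Coordinates come from GENCODE M21 and the promoter from RefSeq.

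Members, lists and tests were chosen with earlier results of these data known. Named genes were the markers and the driver and tag genes. Per list at most 3 higher and 3 lower were named, with a mean of at least 5 CPM. Over all genes 10 higher and 8 lower were named, and against Epyc 6 each way. These had a mean of at least 10 CPM, IPs apart from inputs and a gene set shift under 1 or not estimated. List members whose direction depended on the gene set term were mostly only counted, a restriction made after the values were seen, and a few named genes are not reported here.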

Additional observations from a re-analysis of the deposited data

Results flagged for a closer look

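In 4 genes a single input lay apart from the other 3, out of 108 genes examined. Chance gives about 1 in 20, so this is no more than chance gives. Adra1a had 33.9 CPM in the baseline 4 input. The saline pump input was apart for Snap25 (7126 CPM), Cytip (0.0431 CPM) and Crisp1 (5.86 CPM). The Cytip value is a single count and lies under this library's limit of 0.137 CPM, so it shows no difference between inputs.

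The IP-input difference differed between the Amigo1 and the Epyc line by the test of the difference itself in the genes below, given as Amigo1 minus Epyc on the log2 scale. Markers and signalling genes were Sst at 4.10, Nos1 at 2.97, Pde5a at 5.46 and Prkg1 at 3.04. Acetylcholine receptor genes and their modulator were Chrna3 at 1.38, Chrnb3 at 1.70, Chrm5 at 3.18 and Lypd6 at 1.75. Peptides and receptors were Pthlh at 2.36, Calca at 2.52, Cbln4 at −1.53, Prokr2 at 4.11, Adra1a at 2.86 and Htr7 at −2.71. Channels and receptors for fast transmission were Kcnip1 at 1.53, Gria1 at 1.93, Grik3 at −2.14, Gabrg1 at 2.62, Gabrq at 3.00, Asic4 at −3.51 and Kcng4 at −3.44. Transcription factors and regulators were Meis2 at 3.02, Mab21l2 at 5.84, Nkx1-2 at −5.82 and Lmo2 at −3.99. The others were Cadps2 at 2.18, Pvalb at −3.24, Unc5d at 2.90, Crisp1 at 5.14, Krt20 at 4.72, March1 at 4.52, Klhl14 at −4.11 and Acvr1c at −3.69.

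Reads that fell in no gene made 22.9, 15.4 and 27.3% in the baseline 1, baseline 4 and saline pump IP, against 11.6 to 13.6% in the inputs.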

How the results depend on the processing

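The number of genes called in Amigo1 IP against input, 4426, was 2518 with the pool as a replicate block over paired pools (1179 higher, 1339 lower) and 1452 with a term for the gene set (771 higher, 681 lower). Of the 4426, 3941 kept their direction with that term and 485 turned. Leaving out 1 library at a time gave 3074 to 6475 genes, the highest without the saline pump IP. The paired pools without a block gave 3087. Other settings stayed within 1.5 times: DESeq2's size factors 4406, DESeq2 5550, no filter 4401, baseline pools only 6284, and 3801 without genes that shift between gene sets.

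The 620 genes called between the lines were 957 with DESeq2, 352 with the replicate block and 374 with paired pools and no block, and 459 to 965 with 1 library left out, the highest without the Amigo1 baseline 4 IP. Of 108 genes named in the IP comparison, 69 kept their call in every alternative and 90 in every one but the gene set term. With that term Rpl10a (−0.13), Sstr1 (−0.51) and Abat (0.41) turned. Naming had mostly left out list members whose direction depended on the term, and in part required separate fractions and a small gene set shift. The 69, the 90 and the few turns were thus partly set by the choice and say nothing of other genes. Over all 4426 calls, 1246 passed in the same direction with the term and 485 turned. Of 35 named against Epyc, 27 kept their call in every alternative. The line difference of Amigo1 turned to −0.29 with the block, −0.26 in paired pools without it, −0.49 in baseline pools, and ranged from −0.21 (without the Epyc saline pump input) to 0.22 with 1 library left out, at −0.16 without the Amigo1 saline pump IP. The block changed no call of a named gene beyond those given beside it. The cause of these changes was not tested. With 7908401 counts the saline pump IP limits low genes most: 0 counts there allow 0.433 CPM.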
